A study of Brassica rapa subsp. pekinensis with 4 samples.

Results

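The genes described here are the Chinese cabbage homologs of the proline and arginine decarboxylase genes of Arabidopsis, whose products make, break down and carry osmolytes. The 10 loci were listed with earlier results of these data known, and their copies were found by the listed match, with no use of measured values: every Bra gene whose listed Arabidopsis match was P5CS1 (AT2G39800), P5CS2 (AT3G55610), P5CR (AT5G14800), PRODH1 (AT3G30775), PRODH2 (AT5G38710), P5CDH (AT5G62530), PROT1 (AT2G39890), PROT2 (AT3G55740), ADC1 (AT2G16500) or ADC2 (AT4G34710) was taken. This gave 24 of the 36698 genes listed, of which 35161 carry an Arabidopsis match. The 24 genes belong to 9 of the 10 loci, and no Bra gene was matched to ADC1. Copies of ADC1 may therefore be among the genes matched to ADC2. P5CS1 and PRODH1 had 3 copies each, P5CS2, P5CR, P5CDH and PROT2 had 2 each, PRODH2 had 1, PROT1 had 4 and ADC2 had 5.

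RNA-Seq was performed on polyA RNA from shoots of 1 inbred line of Chinese cabbage (*Brassica rapa* subsp. *pekinensis*), the early-bolting line “4004”. Plants of the non-vernalized group (0D Ver, 2 libraries) were 2 weeks old and had been kept at 23 °C with 16 h of light. Plants of the vernalized group (35D Ver, 2 libraries) were 7 weeks old and had spent 35 days at 5 °C with 12 h of light after the same start. Cold, plant age and day length therefore changed together and cannot be told apart, and the text of the study gives a younger age at the start of the cold than the sample labels do. Each library came from shoots of several pooled plants, so the p-values rest on 2 pools per group. Those of the limma model used below also draw on the spread of other genes of a like level. In whole shoots, fewer cells of a type and less RNA per cell cannot be told apart.

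Proline accumulates in many plants under cold, drought and salt. It is made from glutamate by pyrroline-5-carboxylate synthetase (P5CS), the rate-limiting enzyme, followed by pyrroline-5-carboxylate reductase (P5CR). It is broken down in mitochondria by proline dehydrogenase (PRODH) and pyrroline-5-carboxylate dehydrogenase (P5CDH), and it is carried across membranes by transporters that include PROT1 and PROT2. Arginine decarboxylase (ADC) opens the route from arginine through agmatine to putrescine, the first of the polyamines, which also accumulate in cold-treated plants. In Arabidopsis, P5CS1 and ADC2 are known for their induction by osmotic stress, and PRODH1 for its repression under it. *B. rapa* descends from a whole-genome triplication, so most Arabidopsis genes have several copies in it.

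The libraries held between 17221386 and 23428420 summed counts, and values below are counts divided by a size factor per library (normalized counts), which compare libraries within a gene and not genes with each other. A gene was called when its adjusted p was below 0.05 in a limma model fitted over all 29691 genes that passed a low-count filter, a filter that all 24 genes passed. Fold changes and standard errors (SE) of the model are on the log2(normalized count + 1) scale, 35D Ver minus 0D Ver. Replicates were far closer to each other than the conditions were (chi-square per degree of freedom 9.30 and 10.2 against 71.3 and 80.4), and all 8 copies of the cold treatment markers COR15B, VIN3 and FLC were called. The shoot markers summed to between 617360 and 877385 normalized counts, while no copy of the root markers exceeded 2.44. Of the 10 copies of the floral organ markers, which summed to between 370 and 607, 7 were tested. The 3 copies of PI were called higher under 35D Ver (42.9%, against 20.1% of all genes tested) and none lower (against 20.5%). These 3 passed the low-count filter only through the 35D Ver libraries, where they are high, so their calls are no support for a rise. Of the 6 senescence marker genes, 5 were tested. Of these, 3 were called higher (60%, against 20.1% of all genes tested) and 1 lower (20%, against 20.5%). The 3 include both copies of SAG12, which passed the filter only through the 35D Ver libraries, so their calls are no support for a rise. SAG12, a protease gene of senescing leaves, stood at 0.981 and 2.44 under 0D Ver and at 149 and 1640 under 35D Ver in its copy Bra021998, and the part of such tissue in the results below was not tested.

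Of the 24 genes, 5 (20.8%) were called higher after vernalization and 7 (29.2%) lower, and 12 were not called. Over all genes tested, 20.1% were called higher and 20.5% lower. Without 0D Ver replicate 1 or replicate 2 the number called higher was 8, and without 35D Ver replicate 1 the number called lower was 4. Both P5CS2 copies, PRODH2 and a pair of ADC2 copies rose, and all 3 PRODH1 copies, 3 of the 4 PROT1 copies and 1 ADC2 copy fell. Of these, PRODH2 passed the low-count filter only through the 35D Ver libraries, where it is high. No copy of P5CS1, P5CR, P5CDH or PROT2 was called. With the additional thresholds of the study (an absolute log2 fold change of at least 1 and 500 or more normalized counts, a minimum that was applied here to the group with the higher mean), 1 gene was higher, P5CS2 Bra007179, and 3 were lower, PRODH1 Bra020731 and Bra025421 and PROT1 Bra005004. These are 4.17% and 12.5% of the 24 genes, against 1.34% and 1.75% of all genes tested. Only 8983 of the 29691 genes tested had a mean of at least 500 over the libraries. The level minimum thus lowers the share of all genes, and the 24 were not compared with genes of a like level. The count was 9 without 0D Ver replicate 1 and 2 without 0D Ver replicate 2. The values of the groups did not overlap in 21 of the 24 genes (87.5%), as was the case in 73.1% of all genes tested. The median log2 fold change was -0.09 over the 24 genes and -0.01 over all genes, with a range of -1.84 to 3.02 over the 24.

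**Figure D1:**
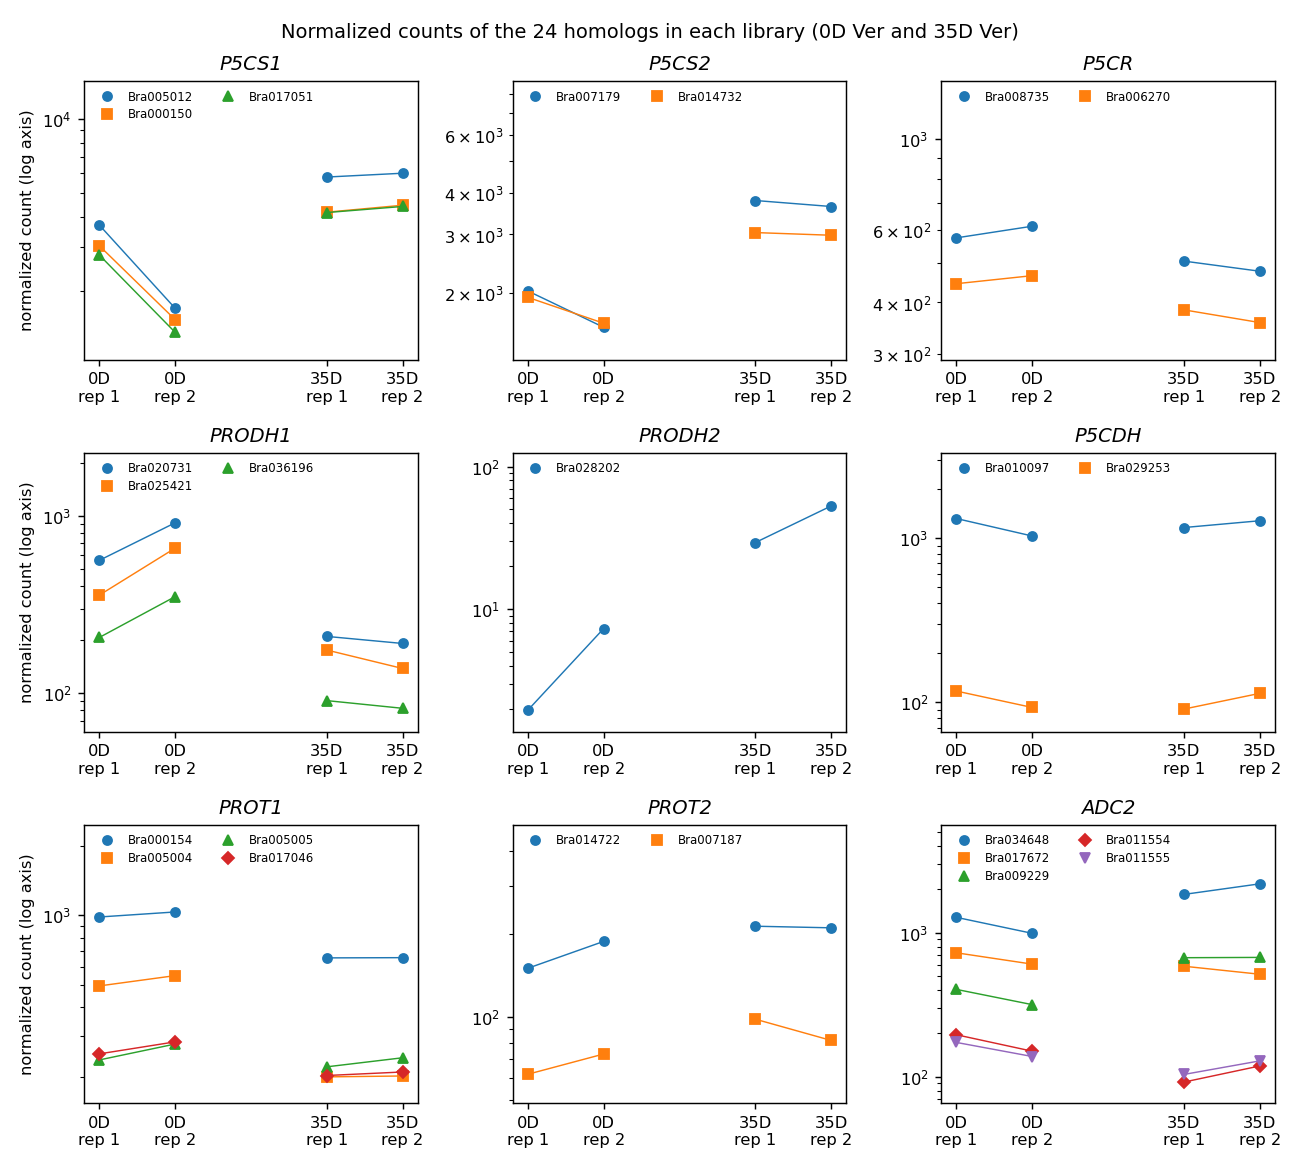
Normalized counts (log axes) of the 24 homologs in the 4 libraries, 1 panel per Arabidopsis locus and 1 colour and marker per copy, with thin lines joining the replicates of a group. The 3 P5CS1 copies differ about as much between the 0D Ver replicates (1354 to 2790 for Bra017051) as between the groups, while every PRODH1 copy lies lower in both 35D Ver libraries.

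The first step of proline synthesis was carried by 5 P5CS copies, and both P5CS2 copies rose. In Arabidopsis, P5CS2 is the housekeeping synthetase needed for growth. P5CS2 Bra007179 stood at 2023 and 1571 normalized counts under 0D Ver and at 3801 and 3646 under 35D Ver. Its mean rose 2.07-fold, from 1797 ± 320 to 3723 ± 110 (SD, n = 2; log2 fold change 1.06, SE 0.13, limma adjusted p = 0.000532). The other copy, Bra014732, gave 1935 and 1616 against 3040 and 2984, a rise of 1.70-fold (log2 fold change 0.77, SE 0.12, limma adjusted p = 0.00134). In both copies each vernalized library lay well above each non-vernalized one. Both calls held in all 14 model fits, which are the main fit, 9 other settings and the 4 fits without 1 library.

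The P5CS1 copies had means 1.89- to 2.19-fold higher after vernalization, about as for P5CS2, but were not called, and their 0D Ver replicates lay far apart. Copy Bra005012 gave 3693 and 1695 normalized counts under 0D Ver and 5792 and 6003 under 35D Ver. Copy Bra000150 gave 3043 and 1524 against 4169 and 4449. Copy Bra017051 gave 2790 and 1354 against 4155 and 4399. In each copy both vernalized libraries were above both non-vernalized ones, with 0D Ver replicate 1 between 0D Ver replicate 2 and the vernalized pair. The groups likewise did not overlap in 73.1% of all genes tested. The log2 fold changes were 1.24 (SE 0.40), 1.00 (SE 0.34) and 1.14 (SE 0.37), with limma adjusted p = 0.0803, 0.0809 and 0.0764. Without 0D Ver replicate 1 they were 1.79, 1.49 and 1.65 (limma adjusted p = 9.0e-05, 0.000213 and 0.000121), and without 0D Ver replicate 2 they were 0.68, 0.50 and 0.62 (limma adjusted p = 0.0126, 0.0350 and 0.0157). The fits that left out a 0D Ver library rest on a lone library in that group, which is assumed to vary like the vernalized pair, so these p-values do not hold the spread that was seen between the 0D Ver libraries.

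This spread was unusual among the genes of these libraries. The 0D Ver replicates differed 2.18-fold for Bra005012, 2.00-fold for Bra000150 and 2.06-fold for Bra017051, and only 0.245%, 0.367% and 0.323% of the 8983 tested genes with a mean of at least 500 differed by more, with a median of 1.09-fold. Under 35D Ver the same 3 copies differed 1.04-, 1.07- and 1.06-fold. The PRODH1 copies were also spread out under 0D Ver but in the other direction, with replicate 2 higher by 1.63-fold for Bra020731, 1.84-fold for Bra025421 and 1.70-fold for Bra036196. All copies of P5CS1, P5CS2, P5CDH and ADC2 (12 genes) were higher in 0D Ver replicate 1, and all copies of P5CR, PRODH1, PRODH2, PROT1 and PROT2 (12 genes) were higher in 0D Ver replicate 2. What set the 0D Ver libraries apart was not tested.

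Both copies of P5CR, which encodes the enzyme of the second step, lay a little lower after vernalization without being called. P5CR Bra008735 gave 575 and 614 normalized counts under 0D Ver against 505 and 477 under 35D Ver (log2 fold change -0.28, SE 0.11, limma adjusted p = 0.0742). P5CR Bra006270 gave 445 and 465 against 384 and 357 (log2 fold change -0.30, SE 0.11, limma adjusted p = 0.0665). The groups did not overlap in either copy, as in 73.1% of all genes tested. Over the 7 genes of synthesis, 2 were called higher (28.6%, near the 20.1% of all genes tested) and none lower (20.5% of all genes tested).

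**Figure D2:**
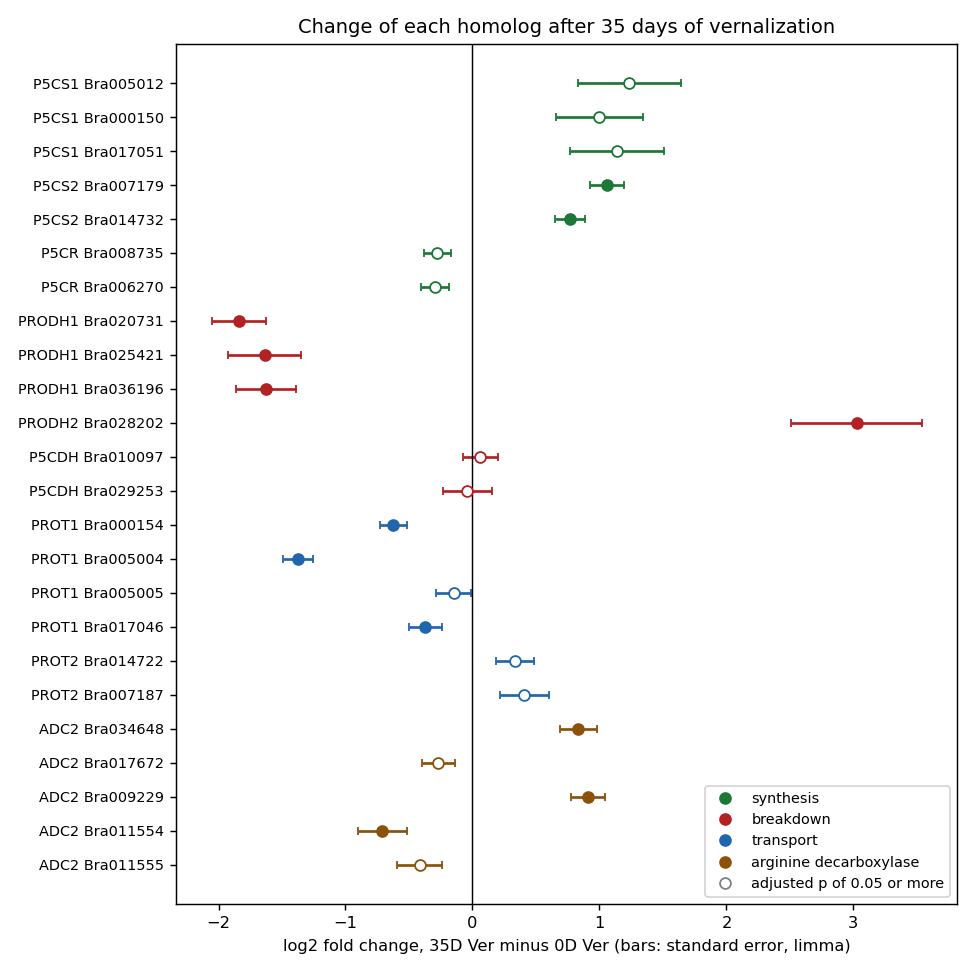
Log2 fold change of each homolog (35D Ver minus 0D Ver) with its standard error from limma, coloured by role, with open circles for genes whose adjusted p was 0.05 or more. The P5CS copies lie between 0.77 and 1.24, the PRODH1 copies between -1.84 and -1.63, and PRODH2 alone at 3.02.

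Of the 6 genes of proline breakdown, all 3 PRODH1 copies fell (50%, against 20.5% of all genes tested). The single PRODH2 copy rose (16.7%, against 20.1%). PRODH1 encodes the main proline dehydrogenase of Arabidopsis, the enzyme of the first and rate-limiting step. PRODH1 Bra020731 stood at 561 and 914 normalized counts under 0D Ver and at 209 and 191 under 35D Ver. Its mean fell from 738 ± 250 to 199.7 ± 12.9 (SD, n = 2), 3.69-fold lower (log2 fold change -1.84, SE 0.21, limma adjusted p = 0.000539). PRODH1 Bra025421 gave 357 and 658 against 175 and 138, 3.25-fold lower (log2 fold change -1.64, SE 0.29, limma adjusted p = 0.00601). PRODH1 Bra036196 gave 206 and 350.3 against 90.7 and 82.0, 3.22-fold lower (log2 fold change -1.63, SE 0.24, limma adjusted p = 0.00126). In each copy the lower 0D Ver library was still above both 35D Ver libraries. The call of Bra025421 was lost without 35D Ver replicate 1 (limma adjusted p = 0.114) or replicate 2 (limma adjusted p = 0.169), and the other copies were called in all 14 fits.

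PRODH2, in Arabidopsis a second proline dehydrogenase that is weakly expressed outside a few tissues, moved the other way at a very low level. PRODH2 Bra028202 had 2 and 6 deposited counts under 0D Ver and 32 and 58 under 35D Ver, or 1.96, 7.32, 29.3 and 52.9 normalized counts. All of the vernalized values were above the non-vernalized ones, and the highest was in 35D Ver replicate 2, the library in which SAG12 was also highest. The 8 and 90 deposited counts gave a ratio of 9.45 between the groups after scaling (95% exact interval 4.60 to 22.6, counting error only). With the 1 that seems to have been added in each library taken off, 6 and 88 counts gave a ratio of 12.3 (95% exact interval 5.44 to 34.5). PRODH2 passed the low-count filter only through its 35D Ver libraries, where it is high, so its call and p-value are no support for the rise. The fitted log2 fold change was 3.02 (SE 0.51, limma adjusted p = 0.00265). It was 2.27 without 0D Ver replicate 1 and 3.80 without 0D Ver replicate 2.

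P5CDH, whose product turns pyrroline-5-carboxylate back into glutamate, showed no detectable difference. P5CDH Bra010097 gave 1315 and 1029 normalized counts under 0D Ver and 1159 and 1274 under 35D Ver (log2 fold change 0.06, SE 0.14, limma adjusted p = 0.737). P5CDH Bra029253 gave 117 and 92.8 against 90.7 and 113 (log2 fold change -0.04, SE 0.19, limma adjusted p = 0.887). The groups overlapped in both copies.

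Synthesis was set against breakdown by the ratio of the summed normalized counts of the 5 P5CS copies to those of the 4 PRODH copies in each library. The P5CS sums were 13484 and 7760 under 0D Ver and 20958 and 21480 under 35D Ver. The PRODH sums were 1126 and 1930 under 0D Ver and 504 and 463 under 35D Ver. The ratio was 12.0 and 4.02 without vernalization and 41.6 and 46.4 after it, so that both vernalized libraries had the higher ratio. On the log2 scale the mean was 2.79 ± 1.11 in the non-vernalized and 5.46 ± 0.11 in the vernalized libraries (SD, n = 2). The difference of 2.66, or 6.33-fold, reached p = 0.33 in a two-sided exact permutation test, the smallest p that 2 libraries against 2 allow. It was 3.45 without 0D Ver replicate 1 and 1.88 without 0D Ver replicate 2. With P5CR added to the synthesis side and P5CDH to the breakdown side, the ratio was 5.67 and 2.90 against 12.5 and 12.1, a difference of 1.60 on the log2 scale (exact permutation p = 0.33). The counts are not divided by coding length, so the ratio compares libraries and does not give the level of synthesis relative to breakdown.

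**Figure D3:**
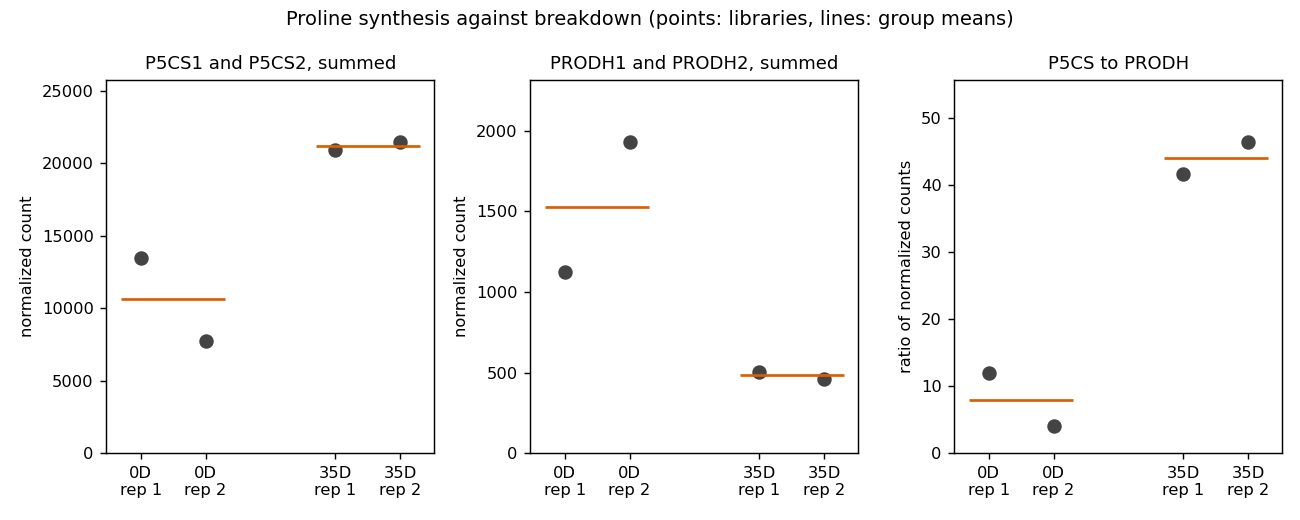
Summed normalized counts of the P5CS copies and of the PRODH copies and the ratio of these sums, with 1 point per library and lines at the group means. Both terms move, P5CS from 7760 and 13484 to 20958 and 21480 and PRODH from 1126 and 1930 to 463 and 504, and the 0D Ver replicates lie apart in both.

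Of the 6 proline transporter genes, 3 copies of PROT1 fell (50% of the 6, against 20.5% of all genes tested) and neither copy of PROT2 was called. PROT1 and PROT2 encode plasma membrane carriers that in Arabidopsis also accept glycine betaine. PROT1 Bra005004 gave 495 and 548 normalized counts under 0D Ver and 199.7 and 201 under 35D Ver. Its mean fell from 521 ± 37.8 to 200.6 ± 1.3 (SD, n = 2), 2.60-fold lower (log2 fold change -1.37, SE 0.12, limma adjusted p = 8.4e-05), with narrow spread in both groups. PROT1 Bra000154 gave 983 and 1034 against 654 and 655 (log2 fold change -0.62, SE 0.10, limma adjusted p = 0.00196). These calls held in all 14 fits. PROT1 Bra017046 gave 251 and 283 against 202 and 209.7, a smaller difference near the threshold (log2 fold change -0.37, SE 0.13, limma adjusted p = 0.0489) that was called in 5 of the 14 fits and was lost without any 1 of the 4 libraries (limma adjusted p from 0.0644 to 0.238). PROT1 Bra005005, which is numbered next to Bra005004, gave 236 and 277 against 221 and 242 with overlapping groups (log2 fold change -0.15, SE 0.14, limma adjusted p = 0.416).

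The PROT2 copies lay higher after vernalization without reaching the threshold. In Arabidopsis, PROT2 is the stress-induced transporter of the pair. PROT2 Bra014722 gave 150.1 and 188 normalized counts under 0D Ver against 213 and 211 under 35D Ver (log2 fold change 0.33, SE 0.15, limma adjusted p = 0.110). PROT2 Bra007187 gave 61.8 and 73.2 against 98.0 and 82.0 (log2 fold change 0.41, SE 0.19, limma adjusted p = 0.119). The groups did not overlap in either copy, as in 73.1% of all genes tested.

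Of the 5 genes matched to ADC2, a pair rose (40%, against 20.1% of all genes tested) and 1 fell (20%, near the 20.5% of all genes tested). The other pair was not called. No gene was matched to ADC1, so some of the 5 may be copies of ADC1, which was not tested. ADC2 Bra034648 stood at 1277 and 989 normalized counts under 0D Ver and at 1842 and 2182 under 35D Ver (log2 fold change 0.83, SE 0.15, limma adjusted p = 0.00262). ADC2 Bra009229 gave 403 and 316 against 669.6 and 673 (log2 fold change 0.91, SE 0.14, limma adjusted p = 0.00120). Both were called in all 14 fits. ADC2 Bra011554 gave 195 and 150.1 against 91.6 and 119 (log2 fold change -0.71, SE 0.19, limma adjusted p = 0.0185), a call lost without 0D Ver replicate 1 (limma adjusted p = 0.114) or 35D Ver replicate 1 (limma adjusted p = 0.0896). Its neighbour in number, Bra011555, gave 173 and 138 against 103.5 and 129 (log2 fold change -0.42, SE 0.18, limma adjusted p = 0.0967), and Bra017672 gave 724 and 604 against 584 and 514 (log2 fold change -0.27, SE 0.13, limma adjusted p = 0.128). The values of the groups did not overlap in any of the 5 copies, as in 73.1% of all genes tested.

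Near-identical copies can exchange reads in mapping. The authors mapped with the default settings of Bowtie2, which place a read at 1 of its equally good matches, and how such reads were then counted is not given in the sources used here. Counts were therefore also summed over the copies of each locus and tested in the same way over 16976 loci, where a division of reads among copies has no effect. Of the 9 loci, 3 were higher (P5CS2, PRODH2 and ADC2) and 2 lower (PRODH1 and PROT1), beside 19.9% and 20.4% of all loci tested. Here too PRODH2 passed the filter only through the 35D Ver libraries. The log2 fold change of the summed counts was 0.94 for P5CS2 (SE 0.12, limma adjusted p = 0.00081), 0.50 for ADC2 (SE 0.13, limma adjusted p = 0.0180), -1.72 for PRODH1 (SE 0.24, limma adjusted p = 0.00223) and -0.65 for PROT1 (SE 0.10, limma adjusted p = 0.00189). The 3 P5CS1 copies together gave 9483 and 4552 against 14200 and 14898, a log2 fold change of 1.15 that was not called (SE 0.37, limma adjusted p = 0.0748). P5CR (-0.27, limma adjusted p = 0.0732), PROT2 (0.37, limma adjusted p = 0.0719) and P5CDH (0.07, limma adjusted p = 0.719) were not called either. The 5 called loci became 6 without 0D Ver replicate 1 or replicate 2, 3 without 35D Ver replicate 1 and 2 without 35D Ver replicate 2.

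Whether the copies of a locus changed unequally was tested on the log2 ratio of each copy to the sum of its other copies, over 20621 genes with at least 2 tested copies. Of the 23 homologs with another copy, 12 were called (52.2%), against 23.8% of all such genes, but the copies of 1 locus mirror each other and are not independent. All 5 ADC2 copies, 3 of the 4 PROT1 copies, both P5CS2 copies and 2 of the 3 P5CS1 copies were called, and no copy of P5CR, PRODH1, P5CDH or PROT2 was. Whether all 5 genes matched to ADC2 are copies of ADC2, and none of ADC1, was not tested. For ADC2, the share of Bra034648 in the counts of the locus was 46.1% and 45.0% under 0D Ver and 56.0% and 60.3% under 35D Ver (log2 ratio change 0.73, SE 0.09, limma adjusted p = 0.00696). The share of Bra017672 went from 26.1% and 27.5% to 17.8% and 14.2% (log2 ratio change -0.95, limma adjusted p = 0.00952), and that of Bra011554 from 7.04% and 6.83% to 2.78% and 3.28% (log2 ratio change -1.25, limma adjusted p = 0.00330). In each case the vernalized shares lay outside the range of the non-vernalized ones by more than the replicates differed.

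For PROT1, Bra005004 held 25.2% and 25.6% of the counts under 0D Ver and 15.6% and 15.4% under 35D Ver (log2 ratio change -0.88, SE 0.05, limma adjusted p = 0.00148), while Bra005005 went from 12.0% and 12.9% to 17.3% and 18.5% (log2 ratio change 0.61, SE 0.08, limma adjusted p = 0.00825). The difference between the P5CS2 copies was small, with Bra007179 at 51.1% and 49.3% against 55.6% and 55.0% (log2 ratio change 0.29, SE 0.04, limma adjusted p = 0.00975). The P5CS1 copies, whose levels differed about 2-fold between the 0D Ver libraries, kept near-constant shares. Bra005012 held 38.8% and 37.1% under 0D Ver and 41.0% and 40.4% under 35D Ver (log2 ratio change 0.17, limma adjusted p = 0.0350), so the copies were spread together between the 0D Ver libraries.

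**Figure D4:**
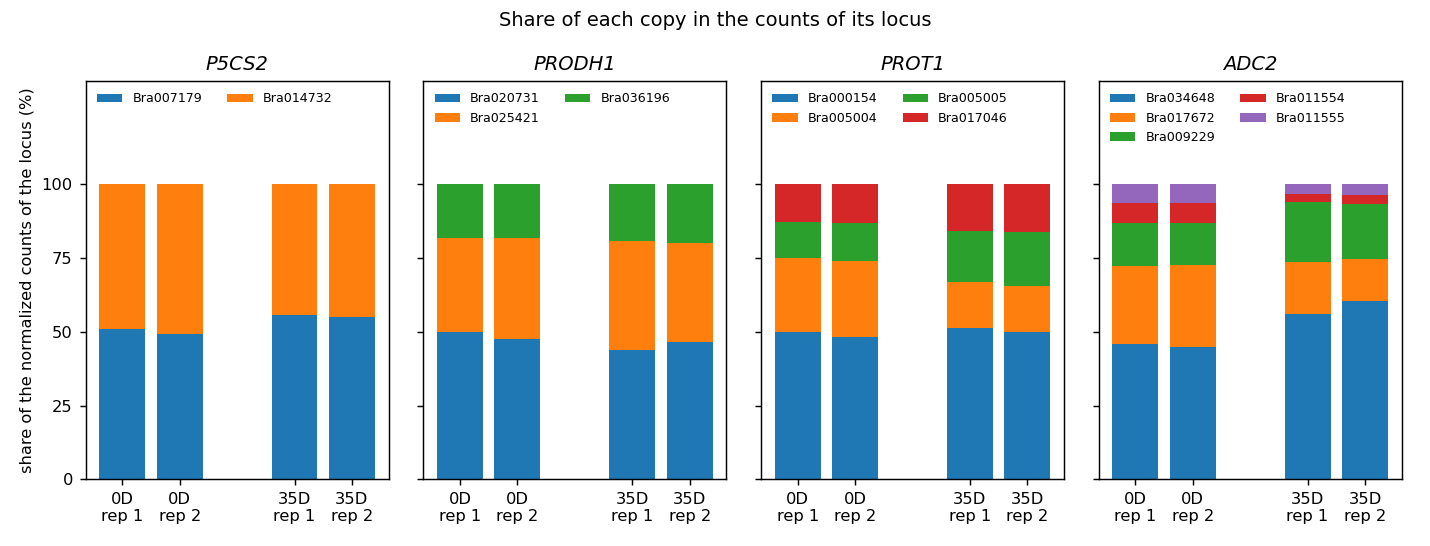
Share of each copy (%) in the normalized counts of its locus in each library, for P5CS2, PRODH1, PROT1 and ADC2. The ADC2 bars show Bra034648 at 45.0% and 46.1% under 0D Ver and at 56.0% and 60.3% under 35D Ver, while the PRODH1 shares show no called change.

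Homologs that adjoin these steps were taken from lists of 40 Arabidopsis loci, of which 35 had a match, giving 68 genes and 66 tested. Of these, 11 (16.7%) were called higher and 15 (22.7%) lower, close to the shares of all genes tested, with a median log2 fold change of -0.01. The count of 26 was 16 without 0D Ver replicate 1 and 15 without 0D Ver replicate 2, and the 11 called higher became 6 without 35D Ver replicate 2. In the route from arginine through ornithine to pyrroline-5-carboxylate, all 3 genes were called higher, a list too short to set against the 20.1% of all genes tested. These were both copies of ornithine aminotransferase (OAT) and ARGAH1, an arginase gene. ARGAH1 Bra000659 gave 131 and 245 normalized counts under 0D Ver and 339 and 379 under 35D Ver (log2 fold change 0.99, SE 0.28, limma adjusted p = 0.0283).

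Downstream of ADC, 4 of the 20 tested genes of polyamine synthesis were called higher, the same share as the 20.1% of all genes tested, and 2 (10%) were called lower, against 20.5%. Both lower genes encode agmatine iminohydrolase (AIH), the enzyme that acts on agmatine, the product of ADC. AIH Bra005974 gave 1649 and 1870 normalized counts under 0D Ver and 731 and 575 under 35D Ver (log2 fold change -1.44, SE 0.14, limma adjusted p = 0.000133), and AIH Bra009326 gave 1821 and 1985 against 934 and 818 (log2 fold change -1.12, SE 0.11, limma adjusted p = 0.000174). The ratio of the summed ADC2 copies to the summed AIH copies was 0.799 and 0.570 under 0D Ver and 1.98 and 2.60 under 35D Ver, 3.36-fold higher on average on the log2 scale (exact permutation p = 0.33, the smallest possible). This ratio was formed after the values were seen, so it is no separate support for a change. Its ADC2 sum joins copies that rose with copies that lay lower. The 4 genes called higher all encode S-adenosylmethionine decarboxylase, which supplies the aminopropyl groups of spermidine and spermine. Other genes of this enzyme were not called. These were SAMDC1 Bra039176 (log2 fold change 0.28, limma adjusted p = 0.0640) and the 3 copies of SAMDC4, which lay lower (log2 fold changes -0.29, -0.36 and -0.65). SAMDC2 Bra008662 rose from 461 and 477 to 1706 and 1564 (log2 fold change 1.80, SE 0.11, limma adjusted p = 1.1e-05), with no overlap between the groups. No spermidine or spermine synthase gene was called.

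Among the genes of polyamine breakdown, 5 of 12 tested were called lower (41.7%) and none higher, where 20.5% and 20.1% of all genes tested were. The other 7 were not called, and the median log2 fold change of the list was 0.05, so the list did not fall as a whole. CuAO1 Bra034523, a copper amine oxidase gene, fell from 5328 and 5298 normalized counts to 2518 and 2185 (log2 fold change -1.18, SE 0.11, limma adjusted p = 0.000134). The other 4 genes called lower were CuAO2 and the polyamine oxidase genes PAO1 and PAO5, the latter with both copies. Of the 18 genes of arginine synthesis from glutamate, 3 were called higher (16.7%) and 4 lower (22.2%), near the shares of all genes tested, and the largest called change was that of NAGPR Bra027810, an acetylglutamate phosphate reductase gene, from 465 and 481 to 317 and 259 (log2 fold change -0.72, SE 0.13, limma adjusted p = 0.00319).

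The last list held bZIP transcription factors of the group known in Arabidopsis to activate PRODH1 under low sugar or low osmolarity, with 13 genes. Of these, 1 was called higher (7.69%, against 20.1% of all genes tested) and 4 lower (30.8%, against 20.5%). The lower genes were all 3 copies of bZIP11 (log2 fold changes -0.46, -0.67 and -0.82) and the copy of bZIP10. bZIP44 Bra003755 rose from 75.6 and 81.8 normalized counts to 242 and 212 (log2 fold change 1.52, SE 0.15, limma adjusted p = 0.000174), while the other bZIP44 copies were not called. Members of this group thus moved in both directions.

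**Figure D5:**
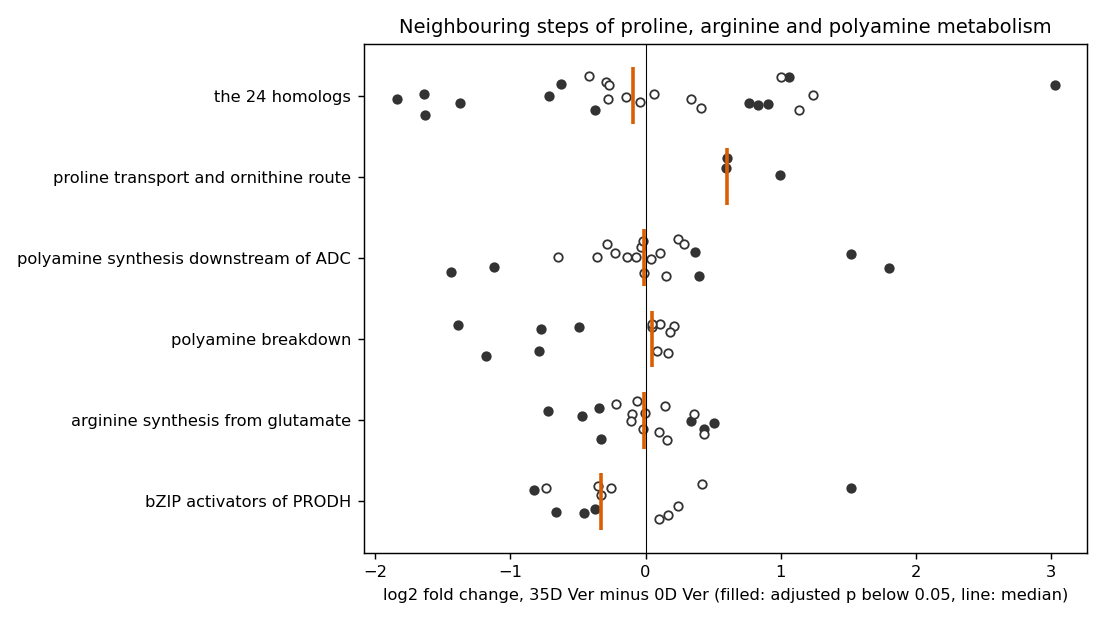
Log2 fold change (35D Ver minus 0D Ver) of each tested gene of the 24 homologs and of 5 lists of adjoining steps, with filled circles for genes called at an adjusted p below 0.05 and a line at the median of each list. Polyamine breakdown holds 5 genes called lower (41.7%, against 20.5% of all genes tested) and none called higher (20.1% of all genes tested). Its median is 0.05. Polyamine synthesis spans -1.44 for AIH to 1.80 for SAMDC2.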

How the data were processed

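RNA-Seq of shoots of line “4004” was analysed in 4 libraries, 2 of 0D Ver and 2 of 35D Ver, grouped by the sample labels. The other replicate of the study and its line “50” were not analysed here. The authors trimmed reads, mapped them with Bowtie2 to *B. rapa* coding sequences and deposited counts per gene, not normalized, written as whole numbers with commas. The lowest value is 1 in every library, so the authors seem to have added 1 throughout. With the commas and this offset the values were not treated as plain read counts, and limma 3.58.1 (R 4.3.3) was used on a log2 scale in place of a count test. Fewer counts give wider relative error, which matters here for PRODH2.

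Counts were divided by size factors from trimmed mean of M-values scaling (trims of 0.3 and 0.05), which were 1.02, 0.819, 1.09 and 1.10 in the order 0D Ver replicates 1 and 2 and 35D Ver replicates 1 and 2. Genes with at least 10 scaled counts in at least 2 libraries and 15 in total were kept. A model with condition only was fitted to log2(normalized count + 1), with trend and robust moderation, with Benjamini-Hochberg adjustment over all genes tested. The same model was fitted to counts summed per Arabidopsis locus and to ratios between copies. Single ratios were tested with an exact two-sided permutation test. The interval for PRODH2 is an exact binomial one at 95%. The steps were tested on simulated data. Plots were drawn with matplotlib 3.10.9.

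The genes named are all 24 homologs and, of the other lists, each gene past the thresholds of the study and otherwise the called gene with the largest absolute change. OAT, the bZIP10 and bZIP11 copies, CuAO2, PAO1, PAO5, SAMDC1 Bra039176 and the SAMDC4 copies were named in addition, after their values were seen. The ratio of ADC2 to AIH was also formed after the values were seen. The homologs and lists were chosen with earlier results of these data known. The alternatives were other scalings, filters, pseudocount and variance model, subtraction of 1, looser thresholds, a replicate block and fits without 1 library. The ratio between copies and a block with crossed replicate numbers were added after seeing the data. Sequences and positions were not used here.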

Additional observations from a re-analysis of the deposited data

How the results depend on the processing

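No fold change of the 24 homologs turned its direction past the threshold under any setting run. The number called was 10 to 12 under other scalings, filters, pseudocount, variance model and subtraction of 1. Leaving out 1 library gave 8 to 14 called, 4 to 8 higher and 4 to 6 lower. Summed per locus, 5 were called, 3 higher and 2 lower, and without 1 library 2 to 6 loci, 1 to 4 higher and 1 to 2 lower. Past the thresholds of the study, leaving out 1 library gave 2 to 9 genes, 0 to 6 higher and 2 to 3 lower, and dropping the fold change threshold gave 8, 4 of them higher. Of the adjoining genes, leaving out 1 library gave 15 to 20 called, 5 to 9 higher and 9 to 12 lower. PROT1 Bra017046 had a limma adjusted p of 0.0550 with median-of-ratios factors, 0.0574 without a filter, 0.0502 with 10 counts in every library and 0.0514 with voom weights. PRODH2 did not pass the filter without either 35D Ver library or with 10 counts in every library, so no value was had there. The depth limits PRODH2 most, with 8 counts under 0D Ver.

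The conditions share replicate numbers 1 and 2, and the deviations of same-numbered libraries had a correlation of -0.17. With 2 libraries per group the crossed correlation is fixed as its negative, so this value cannot decide whether same-numbered libraries were paired. With the replicate block, 14 of the 24 homologs were called, 8 higher and 6 lower, 3 passed the thresholds of the study as higher, and 18 adjoining genes were called, 7 of them higher. The 3 P5CS1 copies were called with the block (limma adjusted p = 0.0206, 0.0249 and 0.0215), and PROT1 Bra017046 was not (0.0877). Over all genes, 10334 were called with the block and 12042 without it. With crossed numbers, a pairing added after seeing the data, 15 of the 24 were called, 5 higher and 10 lower, and 14317 over all genes.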
